A study of Mus musculus with 24 samples.

Results

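Ciliated airway cells were followed in irradiated and drug-treated mouse lung through 10 genes: Foxj1, Tppp3, Tekt1, Tekt2, Tekt4, Dnali1, Dynlrb2, Rsph1, Mns1 and Hydin. The genes were chosen by name, as a set of ciliated cell genes, with earlier results of these data known. They are 10 of the 27401 genes on the arrays and 10 of the 20409 that were tested. By the gene name printed on the array, 8 of the 10 were found; Tppp3 (listed as 2700055K07Rik) and Rsph1 (listed as Tsga2) were found by their RefSeq accession alone.

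Whole lung was sampled 24 days after irradiation and measured on 24 single-colour Agilent arrays, in 12 groups of 2 biological replicates. Without irradiation there was a group called ctrl, 3 groups given a single drug (Ly, Su or Imatinib) and 2 given a combination, Ly+Su or Ly+Imatinib. The 6 irradiated groups match these: Irradiation is the one without drug, and the others are called after it and their drugs, as in Irradiation+Ly+Su. The title of the series gives the question as TGF-beta and PDGF signalling, inhibited together, in lung fibrosis after radiation. Imatinib inhibits the ABL, KIT and PDGF receptor kinases; Ly and Su are named here as in the labels, which give no strain, age, drug dose or radiation dose.

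Multiciliated cells line the conducting airways and move mucus by the beating of motile cilia. The core of a motile cilium, the axoneme, is a ring of doublet microtubules around a central pair, with dynein arms as motors and radial spokes between the ring and the pair. The forkhead factor Foxj1 switches on much of this gene programme, together with the RFX factors, which bind X-box motifs in ciliary promoters.

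Values are log2 intensities with the array's own 75th percentile (as log2) subtracted, so they are relative to that level and can be negative; differences are on the same log2 scale. Levels of different genes come from different probes and are not compared. A gene is called when its adjusted p in limma (Benjamini-Hochberg, over the 20409 genes) is under 0.05. In whole lung, fewer ciliated cells and less RNA per ciliated cell cannot be told apart. The 12 irradiated and the 12 unirradiated arrays lay on different slides, 4 arrays to a slide and each slide scanned separately, so slide and irradiation cannot be told apart. Ly against ctrl, Irradiation+Ly against Irradiation, and Su against imatinib were within a slide.

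Array Irradiation 1 had a 75th percentile of 2518, against 704 to 1768 on the other 23 arrays, and Irradiation+Ly+Imatinib 1 had 330 outlier spots, against 5 to 80. Between 62.0% and 78.5% of the spots on an array were well above background. The probe standing for each of the 10 genes was well above background on 24 of 24 arrays and never saturated. Of 27 other ciliated cell markers tested, 26 were well above background on every array, as were all 14 club cell, 10 alveolar type I and 8 alveolar type II genes.

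RefSeq promoter windows (build GRCm38.p6) were listed for 7 of the 10 genes; Foxj1, Tppp3 and Rsph1 were not among them. The windows are shown as a description. Whether promoter motifs have a part in the genes moving together, as described further on, was not tested. The 250 bases before the start were searched on both strands for the X-box half-site GTTGCC, which reads as GGCAAC on the other strand. They were also searched for the forkhead core TGTTTAC, which reads as GTAAACA on the other strand. By their letters, a match of one motif cannot overlap a match of the other. The half-site was in 5 of the 7 windows (71.4%), in 36 of 101 windows of other motile cilium genes (35.6%) and in 2833 of 27025 windows of all genes (10.5%). The forkhead core was in 0 of the 7, in 8 of the 101 (7.92%) and in 836 of all genes (3.09%). A match is a run of letters and not a tested binding site, and a window without a match says nothing about either factor. The last 150 bases before the start follow for 4 windows with a half-site and for Dnali1, which had none, with the matches in capitals.
Tekt1, chr11:72361883-72362032, minus strand: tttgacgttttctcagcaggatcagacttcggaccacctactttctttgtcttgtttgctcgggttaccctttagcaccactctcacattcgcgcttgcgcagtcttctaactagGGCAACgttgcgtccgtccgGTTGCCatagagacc
Tekt2, chr4:126325689-126325838, minus strand: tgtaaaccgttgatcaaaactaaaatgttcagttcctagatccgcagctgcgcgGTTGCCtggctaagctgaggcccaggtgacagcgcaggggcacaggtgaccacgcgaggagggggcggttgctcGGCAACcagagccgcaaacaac
Dynlrb2, chr8:116504865-116505014, plus strand: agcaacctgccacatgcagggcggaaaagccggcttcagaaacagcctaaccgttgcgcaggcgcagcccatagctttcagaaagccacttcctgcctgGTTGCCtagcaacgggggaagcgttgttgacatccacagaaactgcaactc
Mns1, chr9:72438379-72438528, plus strand: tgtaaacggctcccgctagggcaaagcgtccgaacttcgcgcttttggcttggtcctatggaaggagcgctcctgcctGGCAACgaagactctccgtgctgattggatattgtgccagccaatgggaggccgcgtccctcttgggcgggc
Dnali1, chr4:125065658-125065807, minus strand: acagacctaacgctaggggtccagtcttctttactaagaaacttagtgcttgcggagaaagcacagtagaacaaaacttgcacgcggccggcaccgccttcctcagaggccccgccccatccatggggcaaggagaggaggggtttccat
The Tekt1 matches begin 35 and 15 bases before the start, those of Tekt2 96 and 22 bases, that of Dynlrb2 51 and that of Mns1 72. Hydin had 1 match, 13 bases before its start, and Tekt4 had none.

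Averaged over the 6 drug arms, 9 of the 10 genes were lower in irradiated lungs, 12 arrays against 12, and 0 were higher. Of all genes tested, 16.4% were called lower and 16.4% higher. The falls ran from 1.22-fold in Rsph1 and Hydin to 1.51-fold in Tppp3, and Foxj1 did not pass. The median difference of the 10 genes was -0.42, against 0.01 for all genes. All 10 estimates were below 0, against 48.9% of all genes.

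Tppp3, a tubulin polymerization-promoting protein and ciliated cell marker, was separated completely. It had a lowest, median and highest value of 4.87, 5.05 and 5.20 on the unirradiated arrays and of 3.78, 4.52 and 4.79 on the irradiated ones. Each of the 12 irradiated arrays thus lay below the lowest unirradiated one, which held for no other of the 10 genes and for 0.23% of all genes. The difference was -0.60 ± 0.099 (SE, n = 12 and 12; adjusted p = 0.000546, limma).

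The tektins are filament proteins inside the doublet microtubules. Tekt1 had values of 3.22, 3.54 and 3.82 (lowest, median, highest) without irradiation and 2.36, 3.05 and 3.45 with it. Its 12 irradiated arrays included 8 below every unirradiated one, and the difference was -0.48 ± 0.082 (adjusted p = 0.000641, limma). Tekt2 fell by 0.33 and Tekt4 by 0.38 on the log2 scale, with 3 and 4 of 12 irradiated arrays below every unirradiated one. Mns1, another protein of the doublet lumen, had values of 1.68, 2.16 and 2.47 against 1.10, 1.59 and 1.95. With 9 of 12 irradiated arrays below all unirradiated ones, it differed by -0.55 ± 0.076 and had the smallest adjusted p of the 10 genes (0.000185, limma).

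Among the dynein subunits, Dnali1, a light intermediate chain of the inner dynein arms, fell by 0.54 ± 0.084 (SE; adjusted p = 0.000368, limma). Its values were 1.52, 2.02 and 2.41 without irradiation and 0.83, 1.39 and 2.45 with it; the highest of all 24 was on array Irradiation 1. Dynlrb2, a roadblock-type dynein light chain, fell by 0.46 ± 0.068 (adjusted p = 0.000265, limma), with 9 of 12 irradiated arrays below every unirradiated one. The radial spoke head protein Rsph1 (-0.29 ± 0.083) and the central pair protein Hydin (-0.29 ± 0.083) had the smallest called differences, each with an adjusted p of 0.017 in limma. Their groups overlapped widely, with 5 and 3 irradiated arrays below all unirradiated ones.

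Foxj1, the transcription factor of the set, had values of 2.20, 2.72 and 2.97 without irradiation and 1.96, 2.47 and 2.98 with it. Only 2 of its 12 irradiated arrays lay below every unirradiated one, and the highest of the 24 was on array Irradiation 2. The difference was -0.20 ± 0.074 (adjusted p = 0.0563, limma). It passed without array Ly+Su 1 (adjusted p = 0.0165), Irradiation 2 (0.0303), Irradiation+Ly 1 (0.03) or Irradiation+Ly+Imatinib 2 (0.0287). The 9 other genes kept their calls whichever of the 24 arrays was left out.

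**Figure D1:**
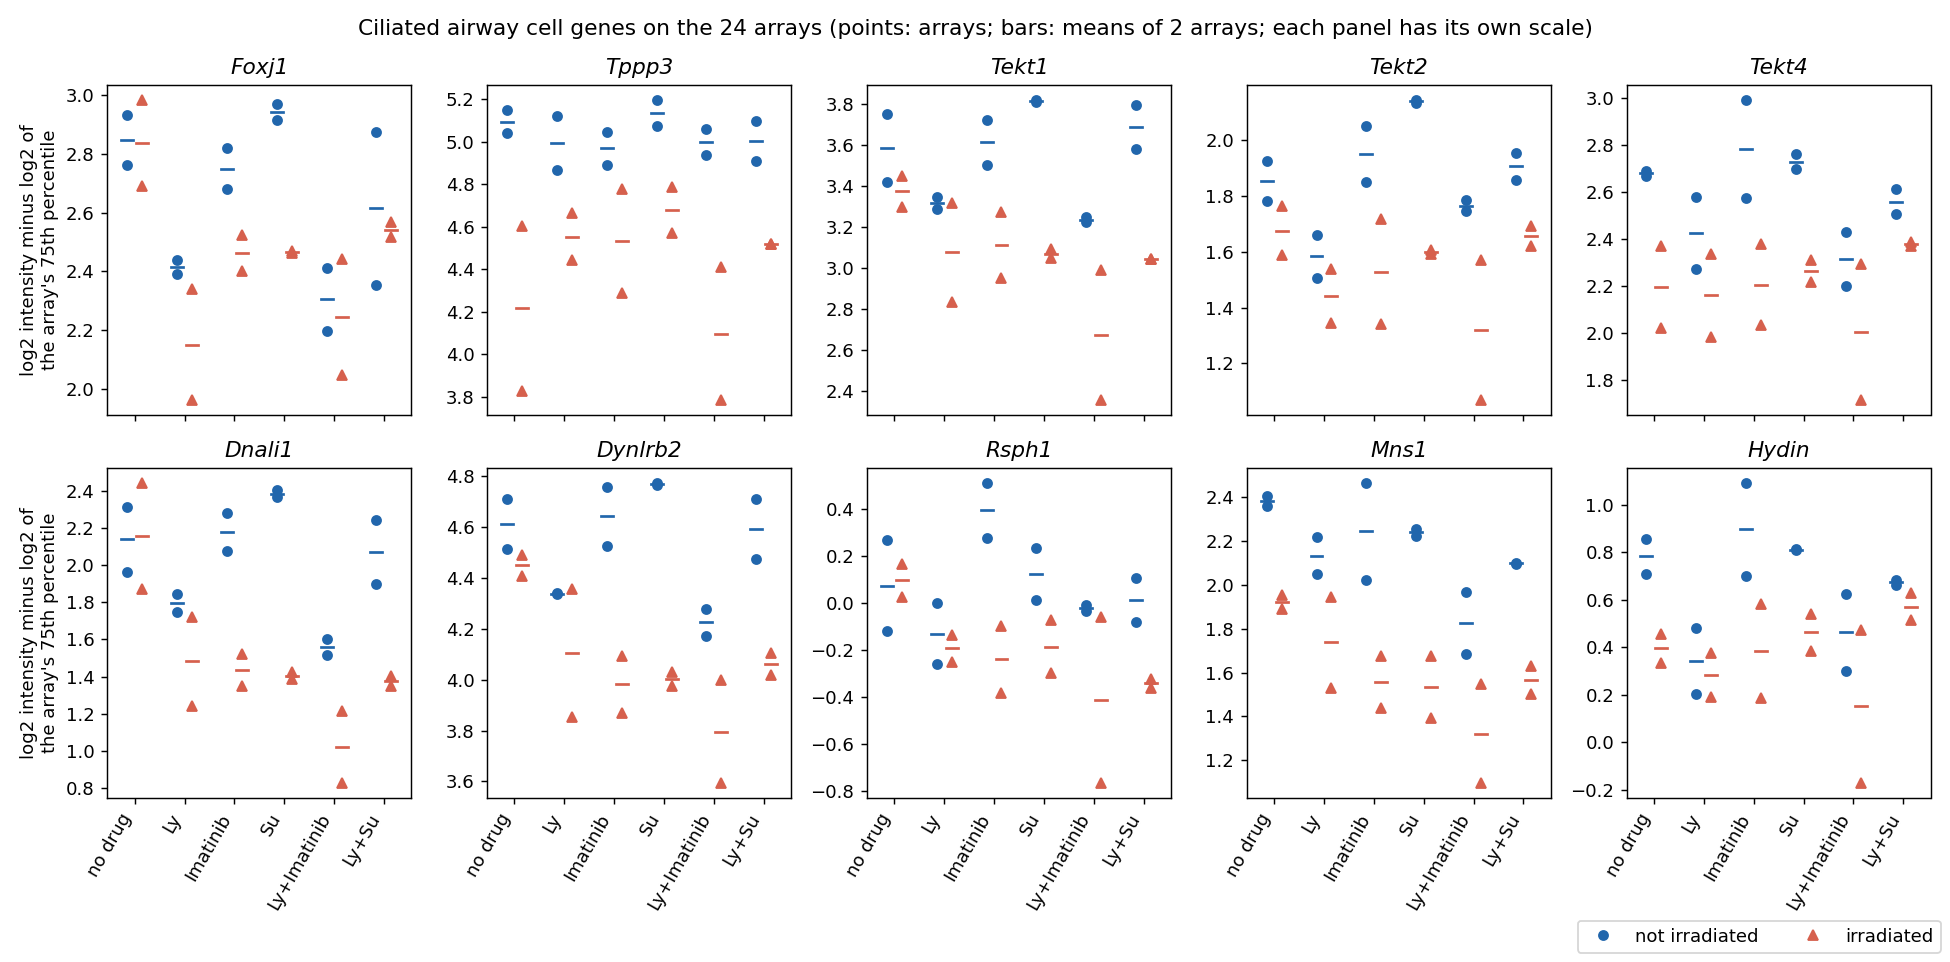
Values of the 10 genes on the 24 arrays (log2 intensity minus log2 of the array's 75th percentile, vertical axis) by drug arm (horizontal axis), with circles for unirradiated arrays, triangles for irradiated ones and bars for means of 2 arrays. In the Tppp3 panel all 12 triangles lie below all 12 circles, while in the Foxj1 and Dnali1 panels the irradiated arrays without drug lie as high as the unirradiated ones of that arm.

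Slide means give a stricter view, since every slide holds only irradiated or only unirradiated lungs. Over 3 slide means against 3, 8 of the 10 genes had every irradiated slide below every unirradiated one, against 13.5% of all genes; Foxj1 and Dnali1 did not. In limma on these means 0 of the 10 were called (adjusted p 0.116 to 0.451), and 1 of 20409 genes passed. At an unadjusted p under 0.05 there were 8 of the 10, against 17.9% of all genes in either direction. Scaling to the median moved the median of all genes to -0.12 and gave 10 of 10 genes lower, and normexp background correction moved it to -0.15 and gave 5 of 10. Among all genes tested, 6528 of 20409 were lower with median scaling and 1003 of 20402 with normexp. Of all genes called, 49.9% were lower, against 76.3% with median scaling and 59.8% with normexp. The estimates of all 10 genes stayed below 0 in each of the alternatives run.

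For the genes with a further usable probe, the other Tekt1 probe differed by -0.41 and the other Dynlrb2 probe by -0.48, and both passed when every probe was tested (adjusted p = 0.00158 and 0.00274, limma). The other Hydin probe was well above background on 0 arrays and gave no value.

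The groups were also ordered by the level of the whole set. With each gene centred on its mean over the 24 arrays, the 10 genes averaged 0.40 in Su, 0.34 in Imatinib, 0.30 in ctrl and 0.22 in Ly+Su. These 4 groups had overlapping or adjoining arrays between 0.14 and 0.47. Irradiation (0.03), Ly (0.02) and Ly+Imatinib (-0.04) came next, with arrays between -0.11 and 0.07 that overlapped from group to group. The other irradiated groups followed: Irradiation+Ly+Su at -0.17, Irradiation+Su at -0.18, Irradiation+Imatinib at -0.21 and Irradiation+Ly at -0.23, with arrays between -0.39 and -0.06. Irradiation+Ly+Imatinib was lowest at -0.48, from arrays at -0.75 and -0.22, of which the second lay among the groups above it. Array Irradiation+Ly+Imatinib 1, the one with 330 outlier spots, was the lowest irradiated array for 9 of the 10 genes.

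Within single drug arms, 2 arrays against 2, fewer genes passed. Without drug, 1 of the 10 genes was lower after irradiation (7.29% of all genes). In the Su arm 5 of 10 were lower (5.62% of all genes). In the other arms 0 of 10 passed in limma, where the share of all genes called lower was 0.0245% with Ly, 0.402% with Imatinib, 1.33% with Ly+Imatinib and 0.686% with Ly+Su. At an unadjusted p under 0.05, 0, 8, 6 and 4 of the 10 genes were below 0 in these arms, and all 10 estimates were negative in each. Of all genes, 47%, 45.5%, 52.5% and 49.6% had a negative estimate there. The share of all genes at the unadjusted threshold is not given, here or in the later comparisons of 1 group with another. Those unadjusted counts therefore have no baseline. The medians of the 10 genes were -0.20 without drug, -0.25 with Ly, -0.55 with Imatinib, -0.51 with Su, -0.44 with Ly+Imatinib and -0.42 with Ly+Su.

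The gene that passed without drug was Tppp3. Its arrays were at 5.15 and 5.04 in ctrl and at 3.83 and 4.60 in Irradiation, so that the groups did not overlap but the irradiated arrays lay far apart. The difference was -0.88 ± 0.24 (SE, n = 2 and 2; adjusted p = 0.0305, limma). It was -0.49 without Irradiation 1 (adjusted p = 0.348), and the call was also lost without ctrl 1 or ctrl 2 (0.106 and 0.107), with median scaling (0.0529) and when limma was fitted to these 4 arrays alone (0.513). Tekt4 (-0.49) passed without Irradiation 2, at -0.66 (adjusted p = 0.044, limma). Foxj1, Dnali1 and Rsph1 were at -0.01, 0.02 and 0.02 in this arm.

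In the Su arm Dnali1 had 2.37 and 2.41 on the Su arrays and 1.39 and 1.42 on the Irradiation+Su arrays. These pairs lay tightly together and did not overlap, and the difference was -0.98 ± 0.21 (adjusted p = 0.0119, limma), a 1.98-fold fall. Dynlrb2 (-0.77), Tekt1 (-0.74), Mns1 (-0.70) and Tekt2 (-0.54) also fell. For all 10 genes both irradiated arrays lay below both unirradiated ones in this arm, as they did for 42.3% of all genes. The same held for all 10 in the Imatinib arm, against 24.6% of all genes. With quantile normalization 1 of the 5 calls was left and with no filter on background 2, and fitting these 4 arrays alone gave 7. For these fits the share of all genes called lower is not given. Each of the 5 calls was lost when any 1 of the 4 Su or Irradiation+Su arrays was left out, with values between -1.0 and -0.53 and adjusted p between 0.0622 and 0.219. Under normexp correction none of the 10 passed in any arm in limma, and the median without drug became 0.06 while that of all genes moved to -0.42. Dynlrb2 in the Imatinib arm (-0.66) passed without Irradiation+Imatinib 1 (-0.77, adjusted p = 0.0433). Without Irradiation+Ly+Imatinib 2, 4 genes passed in the Ly+Imatinib arm, with Tppp3 at -1.21 (adjusted p = 0.017, limma).

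**Figure D2:**
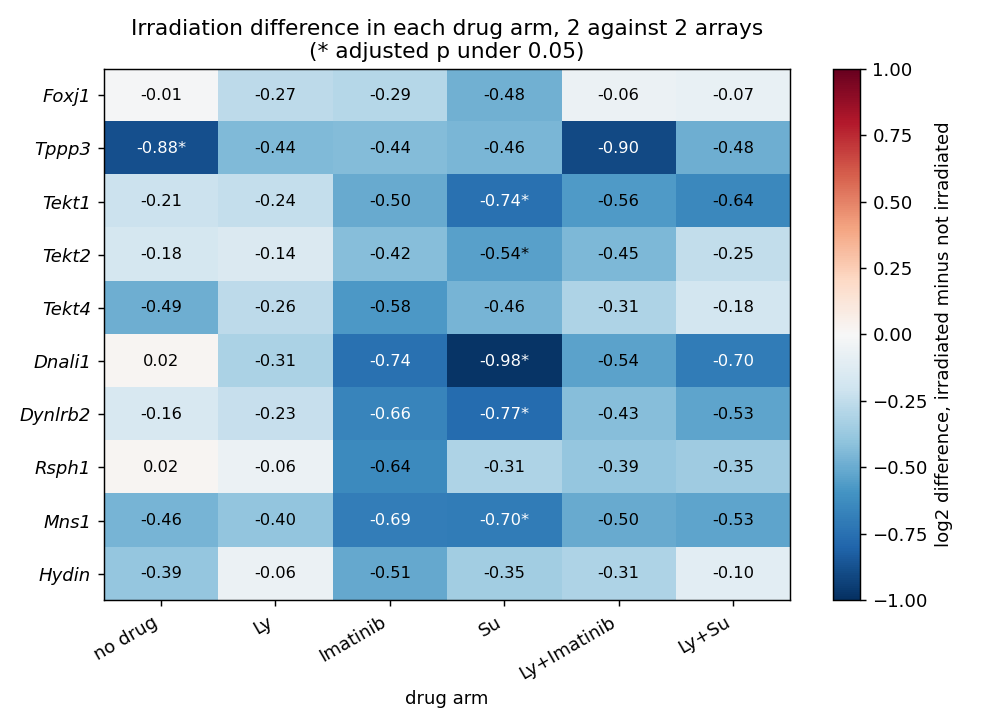
Irradiation differences (log2, colour and printed values) of the 10 genes (rows) in the 6 drug arms (columns), from 2 irradiated and 2 unirradiated arrays each, with a star where the adjusted p is under 0.05. The 5 stars of the Su column are at -0.54 to -0.98, and the star of the column without drug is Tppp3 at -0.88.

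Whether the irradiation difference varied with the drug arm was tested for each gene by an F test over the 5 contrasts with the arm without drug. Of the 10 genes 0 passed in limma (1.07% of all genes), and Dnali1 came nearest (adjusted p = 0.272, unadjusted p = 0.0506). Without Irradiation 2, Dnali1 alone passed. Of the single contrasts, 1 of the 10 genes passed in the Su arm, where 10.2% of all genes did: Dnali1 was at -1.0 ± 0.29 relative to the difference without drug (adjusted p = 0.0456, limma). In the other arms 0 of 10 passed, against 0.0049% of all genes with Ly, 0.715% with Imatinib, 0.157% with Ly+Imatinib and 2.28% with Ly+Su. The Dnali1 contrast was -0.71 without Irradiation 1 (adjusted p = 0.178) and -0.83 without ctrl 2 (0.166). Its adjusted p was 0.114 to 0.123 without 1 of the Su or Irradiation+Su arrays. Leaving out an array of Imatinib, Irradiation+Imatinib, Ly+Imatinib or Irradiation+Ly+Su gave 0.054 to 0.062. Quantile normalization gave -0.79 (0.0787), and testing without a filter on background 0.073.

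Drugs without irradiation were set against the same 2 ctrl arrays. None of the 10 genes passed for any of the 5 drug groups in limma, in either direction. The share of all genes called lower was 0% for Ly, 0.255% for Imatinib, 1.89% for Su, 0.671% for Ly+Imatinib and 0.323% for Ly+Su. At an unadjusted p under 0.05 there were 2 genes for Ly, 4 for Ly+Imatinib and 0 for the other 3 groups. All 10 estimates were below 0 for Ly, within slide 1, with a median of -0.27, and for Ly+Imatinib (-0.36). For Imatinib and Su, 3 and 1 of 10 were below 0. Of all genes, 54.7% were below 0 for Ly, 46.3% for Ly+Imatinib, 52.6% for Imatinib and 49.8% for Su.

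The irradiated drug groups were likewise all set against the same 2 Irradiation arrays, so their differences are not independent. Only Irradiation+Ly shared a slide with Irradiation, so in the other comparisons drug and slide cannot be told apart. Dnali1 was lower in Irradiation+Imatinib (-0.72), Irradiation+Su (-0.75) and Irradiation+Ly+Su (-0.78), where it was the only 1 of the 10 genes called; 4.91%, 14.8% and 11.9% of all genes were called lower there. In Irradiation+Ly+Imatinib 5 of 10 genes were lower (8.47% of all genes), and in Irradiation+Ly 0 of 10 passed in limma (0.26%), with 2 at an unadjusted p under 0.05. In Irradiation+Ly+Imatinib Dnali1 was at 0.83 and 1.22, against 2.45 and 1.87 in Irradiation. No array overlapped between these groups, and Dnali1 fell by 1.14 ± 0.21 (adjusted p = 0.00444, limma), a 2.20-fold fall. The other 4 were Tekt1 (-0.70), Dynlrb2 (-0.65), Mns1 (-0.60) and Foxj1 (-0.59).

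These calls depended on single arrays. Dnali1 in Irradiation+Ly+Imatinib passed whichever of the 4 arrays was left out, between -1.43 and -0.85 (adjusted p 0.000397 to 0.039, limma). Without Irradiation 1 it was -0.43 in Irradiation+Imatinib, -0.47 in Irradiation+Su and -0.50 in Irradiation+Ly+Su, and lost its call (adjusted p = 0.351, 0.208 and 0.171). These 3 calls were also lost without either treated array (adjusted p 0.0633 to 0.17). In Irradiation+Ly+Imatinib, the calls of Tekt1, Dynlrb2, Mns1 and Foxj1 were lost without Irradiation 1 (0.0787, 0.0919, 0.12 and 0.0579) and without Irradiation+Ly+Imatinib 1 (0.237, 0.147, 0.264 and 0.237). Tekt1, Mns1 and Foxj1 were at 0.0563, 0.0642 and 0.108 without Irradiation 2, and without Irradiation+Ly+Imatinib 2 Tekt2 and Rsph1 passed as well (0.0353 and 0.017). Median scaling moved the median of all genes in these 5 comparisons to between -0.34 and -0.13. With it, 20 values of the 10 genes were called lower in place of 8. Of all genes called with median scaling, 56.9% to 85.8% were lower, depending on the comparison. In limma fitted to the compared groups alone, 0 values of the 10 genes were called lower.

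Not all of the genes were lower in estimate with drug among irradiated lungs. Tppp3, Tekt4 and Hydin were above Irradiation in some groups, Tekt4 by at most 0.18 and Hydin by at most 0.18, neither called. Tppp3 was at 4.66 and 4.44 in Irradiation+Ly, 4.78 and 4.29 in Irradiation+Imatinib, 4.79 and 4.57 in Irradiation+Su, and 4.52 and 4.52 in Irradiation+Ly+Su. Those arrays were spread around the Irradiation 2 value of 4.60, and all lay above the Irradiation 1 value of 3.83. The differences from Irradiation were 0.34, 0.32, 0.46 and 0.30, and none passed in limma (adjusted p 0.165 to 0.385). Without Irradiation 2, all 4 passed, at 0.69 to 0.85 (adjusted p 0.011 to 0.03, limma), and Dnali1 passed as lower in Irradiation+Ly (-0.96, adjusted p = 0.0044). With quantile normalization Tppp3 passed as higher in Irradiation+Su (0.80, adjusted p = 0.0444). In Irradiation+Ly+Imatinib, at 3.78 and 4.41, Tppp3 differed by -0.12 (adjusted p = 0.739).

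For the combinations against their single agents in irradiated lung, 0 of 10 genes passed in each of the 4 comparisons in limma. The share of all genes called lower was 0.808% for Irradiation+Ly+Imatinib against Irradiation+Ly and 0.186% against Irradiation+Imatinib, and 0.353% for Irradiation+Ly+Su against Irradiation+Ly and 0.0784% against Irradiation+Su. At an unadjusted p under 0.05 there were 2, 1, 1 and 0 genes. The medians of the 10 genes were -0.26 and -0.23 for Irradiation+Ly+Imatinib, and 0.022 and 0.003 without its replicate 1. They were -0.03 and 0.04 for Irradiation+Ly+Su.

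Su and imatinib were compared within slides. With Ly, all 10 genes were higher with Su than with imatinib in estimate, both without irradiation (median 0.26) and with it (median 0.35), but 0 of 10 passed in limma in either comparison. Of all genes, 51.1% and 45.6% were lower with Su in estimate. The share of all genes called higher was 0.0343% and 0%, and 3 and 0 of the 10 had an unadjusted p under 0.05. Without Ly, 0 of 10 passed as well (0.113% of all genes without irradiation and 0% with it; 0 and 0 at an unadjusted p under 0.05), and the medians were 0.15 and 0.04. With normexp correction Foxj1, Tekt1, Dnali1 and Dynlrb2 were called higher in Ly+Su than in Ly+Imatinib (each with an adjusted p of 0.0419, limma). The median of all genes moved to -0.39 there. Of all genes called in that fit, 87.7% were lower, but the share of all genes tested is not given.

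Ly was present in 6 of the 12 groups, and the average over the 6 pairs of groups with and without it was added after the values had been seen. Of these pairs 4 lay on different slides, which the model does not take into account; in the 2 pairs within a slide, 0 of the 10 genes were called in limma. All 10 genes had a negative estimate, with a median of -0.22, and 2 of 10 were lower (1.11% of all genes called lower). Dnali1 fell by 0.40 ± 0.084 (SE, n = 12 and 12; adjusted p = 0.00725, limma) and Foxj1 by 0.34 ± 0.074 (adjusted p = 0.00944, limma). Tppp3, with the largest irradiation difference of the 10, had the smallest Ly difference (-0.08 ± 0.099, adjusted p = 0.707, limma). For both averages no gene but Tppp3 under irradiation was free of overlap.

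For Dnali1, unirradiated arrays without Ly were between 1.97 and 2.41. Those with Ly were at 1.84 and 1.75 in Ly, 1.52 and 1.60 in Ly+Imatinib and 1.90 and 2.25 in Ly+Su. All but Ly+Su 2 thus lay below every unirradiated array without Ly, a pattern whose share among all genes is not given. In irradiated lung its mean was lower with Ly in each of the 3 pairs of groups, though for Irradiation+Ly+Su against Irradiation+Su the arrays overlapped.

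Foxj1 separated likewise without irradiation. Without Ly its unirradiated arrays were at 2.93 and 2.76 in ctrl, 2.68 and 2.82 in Imatinib and 2.92 and 2.97 in Su. With Ly they were at 2.44 and 2.39 in Ly, 2.20 and 2.41 in Ly+Imatinib and 2.35 and 2.88 in Ly+Su. Apart from Ly+Su 2, each array with Ly lay below all arrays without it. Foxj1 and Dnali1 are the genes called in the Ly average, so this separation is not further support for it. How many of all genes separate in this way is not given. In irradiated lung Foxj1 was at 2.69 and 2.98 in Irradiation and at 2.34 and 1.96 in Irradiation+Ly, on the same slide (-0.68 ± 0.18, adjusted p = 0.0765, limma). The other irradiated groups without Ly were at 2.52 and 2.40 with Imatinib and 2.46 and 2.47 with Su. Adding Ly to these gave 2.05 and 2.44, and 2.52 and 2.57, so that no common direction held there.

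The Ly count never fell when 1 array was left out, and rose for a few arrays. It rose without Irradiation+Ly+Imatinib 2, without Irradiation+Ly 1 and without Irradiation 2, where Dynlrb2 was at -0.26, -0.27 and -0.23. The number of all genes called lower rose in each of these fits too. Leaving out any other array did not change the count. Dnali1 lay between -0.45 and -0.35 and Foxj1 between -0.38 and -0.30 over the 24 fits with 1 array left out. With normexp correction 0 of 10 passed in limma, where 0 of 20402 genes did and 1085 had an unadjusted p under 0.05. Of all genes called for Ly, 14.6% were lower, against 41.2% with median scaling. Ly added to Imatinib or Su in unirradiated lung was also chosen after the values were seen. There 0 of 10 passed in limma (0.397% of all genes lower for Ly+Imatinib against Imatinib and 0.167% for Ly+Su against Su). The medians were -0.42 and -0.16, with 5 and 0 genes at an unadjusted p under 0.05. Normexp called 7 of 10 lower in Ly+Imatinib, while the median of all genes moved to 0.41. Of all genes called there with normexp, 14% were lower, but the share of all genes tested is not given.

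**Figure D3:**
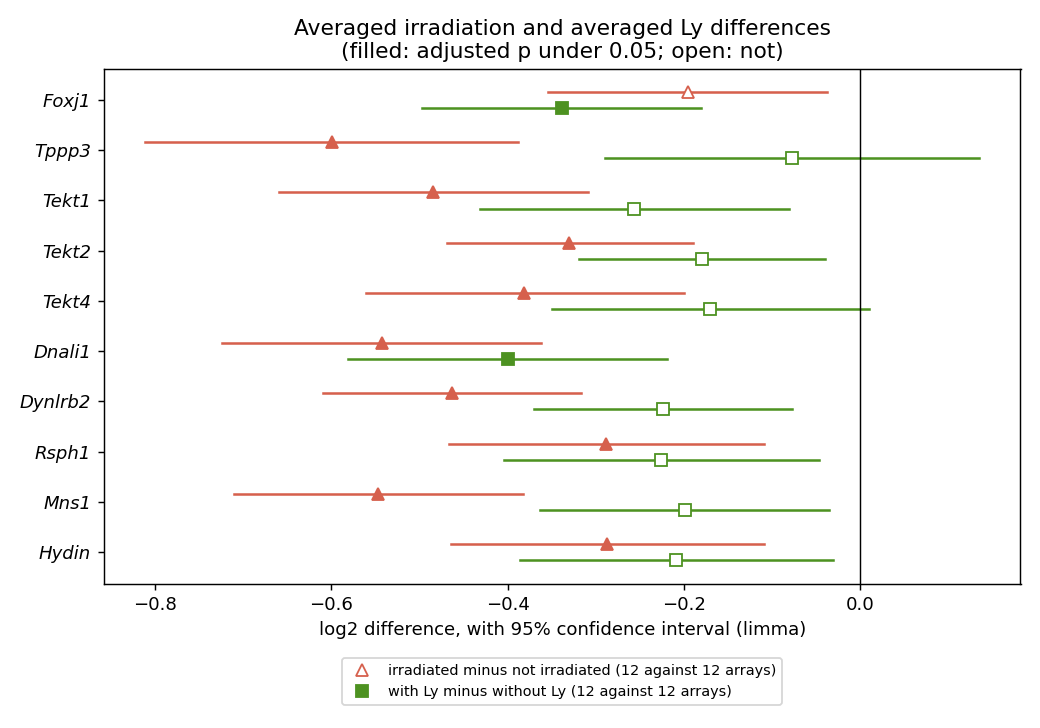
Averaged irradiation differences (triangles) and averaged Ly differences (squares) of the 10 genes, on the log2 scale with 95% confidence intervals from limma; filled symbols have an adjusted p under 0.05. Dnali1 is filled in both, Foxj1 for Ly alone at -0.34, and Tppp3 lies at -0.60 for irradiation and -0.08 for Ly.

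The genes varied together from array to array. Over the 45 pairs of the 10 genes Pearson's r over the 24 arrays ran from 0.41 to 0.97 with a median of 0.79, as a description; the arrays share their scaling, slides and treatments. Taking each array as its deviation from its group mean, the median was 0.725 and the range -0.02 to 0.92. Tekt1 followed the mean of the other 9 most closely (r = 0.970, and 0.945 for deviations). Over arrays Tppp3 followed it least (0.707), and for deviations Dnali1 (0.591) and Tppp3 (0.598). Replicates of a group differed in the same direction for all 10 genes in Imatinib, Irradiation+Ly, Irradiation+Imatinib and Irradiation+Ly+Imatinib, by a median of 0.225 to 0.54. In Irradiation they did not: replicate 1 was lower than replicate 2 by 0.78 in Tppp3 and higher by 0.58 in Dnali1.

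Outside the set, the genes most like its mean over the 24 arrays were Spaca9 (r = 0.98), Fam183b (0.98), Cibar2 (0.98), Cfap126 (0.96), Anxa8 (0.96), 1110017D15Rik (0.96), Tmem107 (0.96), Mycbpap (0.955), Dnah2 (0.955) and Drc1 (0.95). By deviations from group means, they included Drc1 (0.96), Ccdc13 (0.96), Fam183b (0.95), Spaca9 (0.95), Ccdc113 (0.95), Enkur (0.95), BC051019 (0.94), B3gnt4 (0.94) and Cfap57 (0.94). Drc1, of the nexin-dynein regulatory complex, Fam183b and Spaca9 are in both groups of names.

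The rest of the motile cilium was described through 7 further lists, from which 105 genes other than the 10 were tested. Of these, 55 were lower after irradiation on average (52.4%), 3 were higher and 47 did not pass, with 99 below 0 and a median of -0.23. Averaged over Ly, 16 were lower and 1 higher, with a median of -0.18. In the Su arm 18 were lower after irradiation (17.1%, against 5.62% of all genes) and 1 higher. Without drug 7 were lower (6.67%, against 7.29% of all genes) and 2 higher. The lists and the 10 genes describe the same cells and are not independent of each other. Both were chosen with earlier results of these data known.

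Axonemal dyneins and docking factors were lower in 7 of 12 cases, with the heavy chains Dnah8 at -0.68 and Dnah2 at -0.57 and the intermediate chain Dnaic1 at -0.40. Of the 8 dynein arm assembly factors 5 fell, among them Zmynd10 (-0.54) and Dnaaf1 (-0.45); Dnaaf6, above background on 9 arrays, was at -0.63 and did not pass. Radial spoke and nexin-dynein regulatory complex genes fell in 10 of 19 cases, with Lrrc23 at -0.48 and Drc1 at -0.43, while Ccdc40 (-0.39) did not pass. Of 15 central pair genes 6 fell, with Cfap70 at -0.46 and Ak7 at -0.42, and Cfap74 (-0.60) did not pass.

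Tektins and lumen proteins of the doublets, a list that holds none of the 10 genes, fell in 10 of 16 cases, with Mdh1b at -0.55, Cfap161 at -0.54 and Cfap45 at -0.46. Tekt5, named here because it alone went up in its list, rose by 0.43. Further markers of ciliated cells were lower in 14 of 27 cases, with Armc3 at -0.60, Cfap65 at -0.57 and Fam183b at -0.51. Of 33 genes of intraflagellar transport and the BBSome, which serve primary cilia of other cells too, 15 fell, with Bbs9 at -0.42 and Ift43 at -0.37; Ift57 (-0.37) did not pass.

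The regulators of ciliogenesis did not move as one. Of 8 tested, 3 fell (Myb, Trp73 at -0.30 and E2f5 at -0.20) and 2 rose. Myb, which drives the early steps of multiciliated cell formation, fell by 0.59 on the log2 scale, while E2f4, a cell cycle factor also used in centriole multiplication, rose by 0.94 and Deup1, a deuterosome protein, by 0.43.

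**Figure D4:**
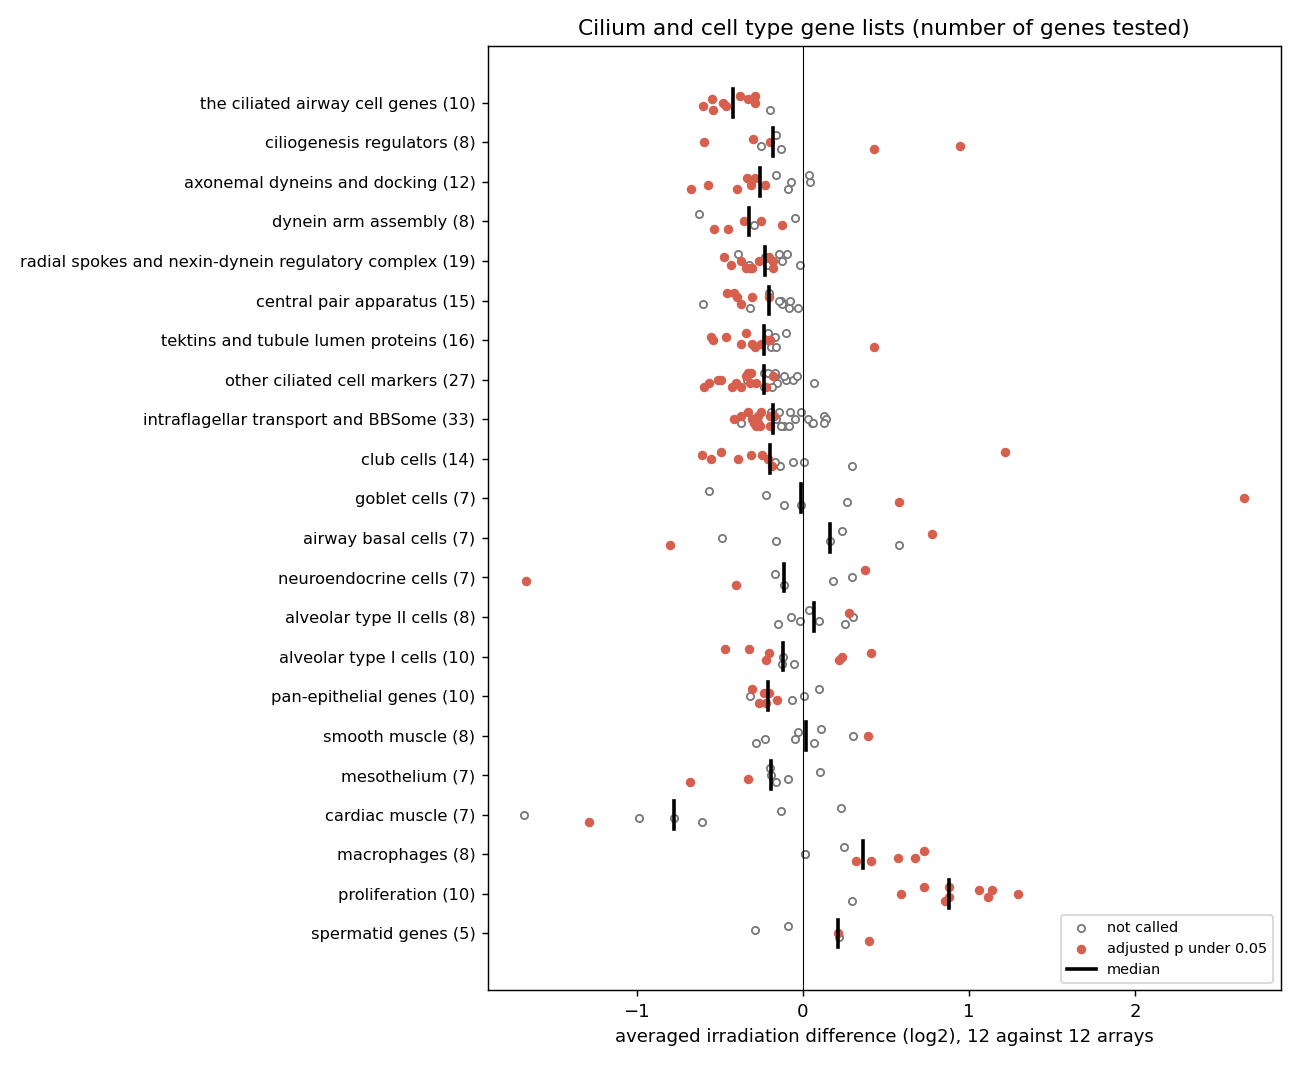
Averaged irradiation differences (log2, horizontal axis) of the genes tested in each list (rows, with their number), filled where the adjusted p is under 0.05 and with a bar at the median. The 10 ciliated airway cell genes have a median of -0.42, club cell genes of -0.20 and proliferation genes of 0.88.

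Genes of other cell types of the airway and lung changed in the same comparison, in which 16.4% of all genes were called lower and 16.4% higher. Club cell genes were lower in 8 of 14 cases and higher in 1, with a median of -0.20: Cldn10 was at -0.61, and Reg3g rose by 1.22. The mean of the club cell list ran from 3.57 to 5.28 on unirradiated arrays and from 3.90 to 4.69 on irradiated ones. Genes shared by epithelia were lower in 6 of 10 cases, with Krt18 at -0.31 and Cldn4, which did not pass, at -0.32; their list mean ran from 2.52 to 3.16 and from 2.49 to 3.14. Every gene of these 2 lists was well above background on every array, and their part in the result was not tested.

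Of the other epithelial lists, goblet cell genes had 0 of 7 lower and 2 higher (Clca1 at 2.66 and Agr2 at 0.58). Airway basal cell genes had 1 of 7 lower (Dapl1, -0.80) and 1 higher (Trp63, 0.78, above background on 5 arrays). Neuroendocrine genes had 2 of 7 lower, Grp (-1.67) and Calca (-0.40), and 1 higher (Scg5, 0.37). Alveolar type I genes had 4 of 10 lower and 3 higher, with Rtkn2 at -0.47 and Spock2 at 0.41. Alveolar type II genes had 0 of 8 lower and 1 higher, Abca3 at 0.27, while Etv5 (0.30) did not pass.

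Beyond the epithelium, 9 of 10 proliferation genes rose, with Cdk1 at 1.29 and Ccnb1 at 1.14, and 5 of 8 macrophage genes rose, with Mrc1 at 0.73 and Cd68 at 0.68. Smooth muscle genes had 1 of 8 higher (Actg2, 0.39; Tagln at 0.30 did not pass), and mesothelial genes 2 of 7 lower (Muc16, -0.68, and Upk3b, -0.33). Cardiac muscle genes had a median of -0.78 with 1 of 7 lower (Myl7, -1.29), and Sln at -1.68 did not pass. Spermatid genes, a check on the axoneme genes shared with sperm, had 2 of 5 higher, with Prm1 at 0.40 and Tnp1 at 0.21, and Tnp2 (-0.29) did not pass. Only 2 of these 5 were well above background on every array, and 1 was so on only 3 arrays. With values this low the check is weak.

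In the averaged Ly comparison the same lists gave 0 of 14 club cell genes lower, with 14 below 0 and a median of -0.12. Epithelial genes were lower in 2 of 10 cases with 10 below 0, a median of -0.18, Cldn4 at -0.51 and Krt18 at -0.22. Goblet cell genes were lower in 1 of 7 cases (Agr2, -0.78), with a median of -0.78, and cardiac muscle genes in 1 of 7 (Nppa, -1.12), with a median of -0.90. The part of these cell types in the Ly differences was not tested.

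**Figure D5:**
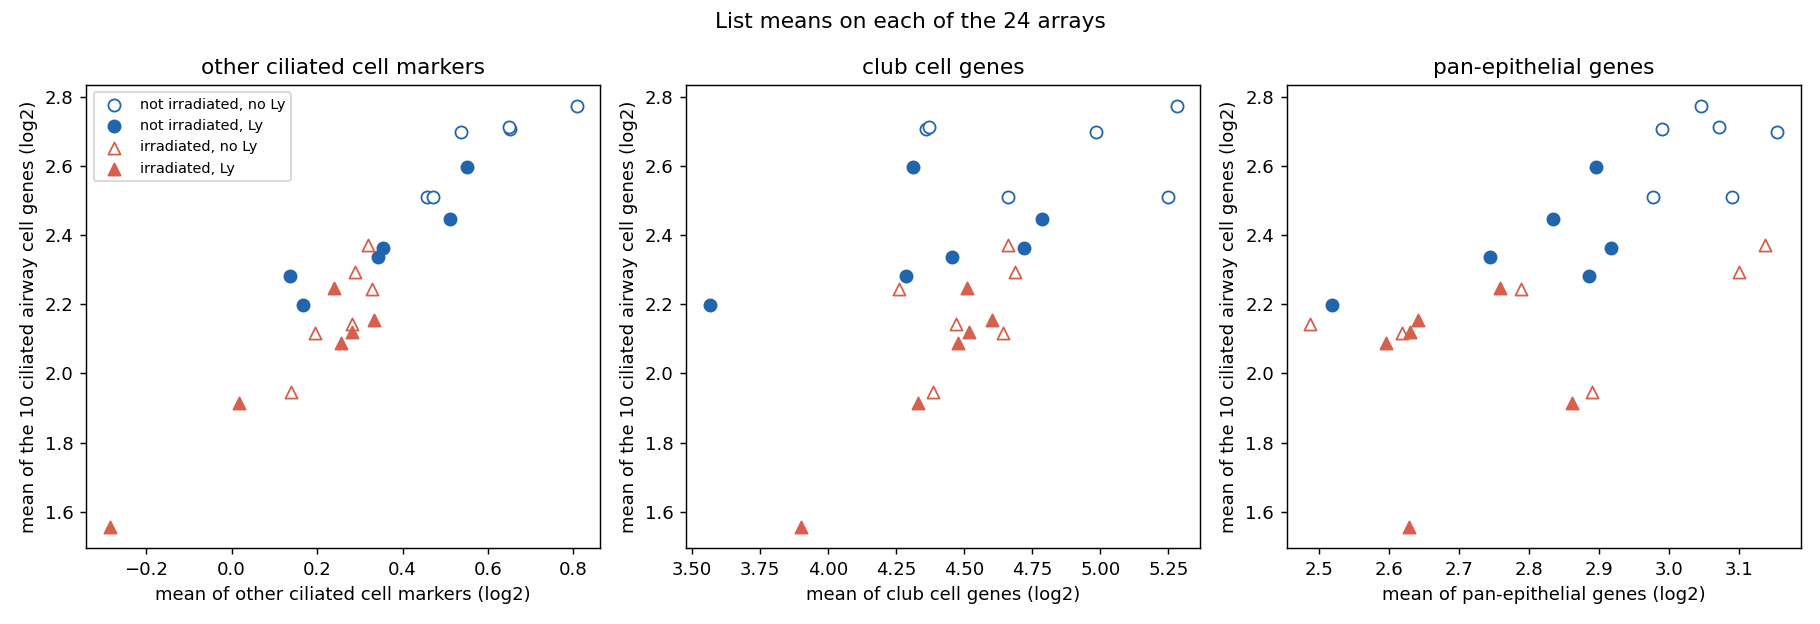
Mean of the 10 ciliated airway cell genes on each of the 24 arrays (vertical axis, log2) against the mean of other ciliated cell markers, of club cell genes and of pan-epithelial genes (horizontal axes, log2), with circles for unirradiated and triangles for irradiated arrays and filled symbols for Ly. The arrays run along a line in the first panel and are spread more widely in the other panels. Irradiated arrays lie within the unirradiated range for club cell genes. With pan-epithelial genes the 2 means tend to rise together on unirradiated arrays. There Ly+Imatinib 1 had 2.52 for the pan-epithelial genes and 2.20 for the 10 genes, and ctrl 1 had 3.16 and 2.70.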

How the data were processed

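RNA of 24 mouse lung samples was measured on single-colour Agilent arrays. Per the file headers, Feature Extraction 9.1.3.1 made the intensity used here, background-subtracted and without scaling between arrays. The deposited series table held the same intensity times a constant per array (ratio 0.995 to 1.005 once it was removed). From the deposited intensity, log2 values were computed, less the array's 75th percentile (log2) over its 43379 non-control spots. Spots of a probe were averaged, 619 of 41174 probes with outlier flags were dropped, and the probe with the highest mean stood for its gene. Probes were named through a RefSeq table by accession (22951), symbol (6659) or synonym (3109), and 8455 kept the array's name. A gene was tested when well above background on both arrays of at least 1 group.

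One limma model (limma 3.58.1, R 4.3.3, data.table version 1.17.8) with a mean per group was fitted to all 24 arrays; it had 12 residual and 2.08 prior degrees of freedom, and its two-sided p-values were adjusted over 20409 genes. The model takes no account of slides. The procedure was tested on simulated data with independent noise for each gene and array and no slide effect. That test therefore says nothing about slides or about genes that vary together. Intensities are not counts, and the number of arrays limits the precision. Labels call the replicates biological but name no animals. For the second Irradiation+Su sample the title gives replicate 2 but the source name 1, and the title was followed.

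The members and lists were chosen with earlier results of these data known. Named genes are the 10 members, the 3 largest averaged irradiation differences of each cilium list, the 2 largest of each other list, and the 10 genes most like the members by each of 2 measures, of which 1 is not reported here; the further genes named from lists (Tekt5, Trp73, E2f5, Scg5, Tnp1 and Nppa) were chosen after their values were seen. Alternatives covered normalization, background correction, filters, probes, slide means, the replicate number as a block, the compared groups alone and each array left out; 75th percentiles over averaged probes, slide 6 left out and 2 arrays left out together were added after the data were seen. The files name no genome build, so no positions of the probes are given.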

Additional observations from a re-analysis of the deposited data

Results flagged for a closer look

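The irradiation difference of Dnali1 in the Su arm differed from that without drug by -1.0 (adjusted p = 0.0456, limma). In the Su contrast 10.2% of all genes passed. The same gene had no such contrast past the threshold in the 4 other drug arms, but its values there had the same sign. They were -0.33 with Ly, -0.76 with Imatinib, -0.56 with Ly+Imatinib and -0.72 with Ly+Su. All of these contrasts subtract the same difference without drug, so their shared sign is not independent support. The F test over the arms was not passed (adjusted p = 0.272, limma), which does not show that the arms are alike. Whether the result is particular to Su was not tested, since the Su arm was not set against the other drug arms.

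In 3 genes the arrays with Ly lay entirely above those without it in 1 pair of groups and entirely below in others; these differences between pairs were not tested. For Irradiation+Ly+Su against Irradiation+Su, Foxj1 was at 0.0765, Tekt2 at 0.0584 and Tekt4 at 0.114. The median of all genes in this comparison was 0.049, with 37.5% below 0. The share of all genes with the same pattern is not given. Separated pairs of arrays are common: irradiated arrays lay below unirradiated ones for 24.6% of all genes in the Imatinib arm and 42.3% in the Su arm. For Ly against ctrl, Ly+Imatinib against Imatinib and Ly+Su against Su all 3 lay below, as did Foxj1 and Tekt2 for Irradiation+Ly against Irradiation.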

How the results depend on the processing

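The averaged irradiation count of 9 of 10 was 5 with normexp correction, 0 on slide means and 9 to 10 with 1 array left out; it was 8 without slide 6, over 4 arms, and 9 without Irradiation 1 and Irradiation+Ly+Imatinib 1 together. The 6 calls within drug arms became 2 with quantile normalization, 0 with normexp, 4 with no filter on background, 7 when limma was fitted to the compared groups alone and 1 to 10 with 1 array left out. The 8 calls of irradiated drug groups against Irradiation became 4 with quantile normalization, 20 with median scaling, 1 with normexp, 5 with no filter on background, 0 when limma was fitted to the compared groups alone and 1 to 10 with 1 array left out. The 2 calls of the averaged Ly difference became 4 with median scaling, 0 with normexp and 2 to 7 with 1 array left out. Su against imatinib went from 0 to 4 with normexp, and Ly added to Imatinib or Su from 0 to 7 with normexp. The interaction count also moved with 1 array left out. No called value changed sign. The counts for drugs alone and for combinations against single agents were 0 throughout. For comparisons of 1 group with another, the share of all genes tested that was called under an alternative is not given. Those counts therefore have no baseline. With no filter on background, 4984 genes were lower and 3280 higher with irradiation, and with normexp 1003 and 673. The causes were not tested.

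Samples sharing a replicate number did not pair across groups: over 66 pairs of groups the correlation of deviations had a median of 0.036, a range of -0.202 to 0.251 and 20 values over 0.1. With the replicate block, 9 members were called in the averaged irradiation difference, 6 within arms, 8 against Irradiation and 2 for Ly, the counts without it. Slide could not be fitted as a random block, since each group lies on 1 slide.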
